A study of Homo sapiens with 8 samples.

Results

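Autophagy wraps cytoplasm in a double membrane, the autophagosome, and hands it to the lysosome for digestion. A kinase complex around ULK1 starts the membrane, a lipid kinase complex around BECN1 marks it with the lipid PI3P, and conjugation enzymes attach proteins of the LC3 and GABARAP family to it. Cargo receptors such as SQSTM1 (p62) bind both ubiquitin-tagged cargo and LC3, and factors of the MiT/TFE family switch on genes of the pathway. Autophagosomes travel to lysosomes along microtubules, the polymer that the drug of this study acts on.

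The genes described here are 36 named components of this pathway, taken by symbol from the 20323 genes of the deposited table. They comprise 5 LC3 and GABARAP proteins, 5 cargo receptors, 5 ULK complex genes, 6 genes of the lipid kinase complex, 5 lipid transfer and PI3P-binding genes, 7 conjugation genes and 3 MiT/TFE factors. All 36 were found and all 36 passed the filter on low counts. ATG9A had another row under its symbol, ENSG00000284820, a gene that overlaps it on the same strand. That row averaged 1.91 ± 0.677 CPM under DMSO and 2.47 ± 1.42 CPM under DPT (mean ± SD, n = 4 per group) and is kept apart.

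H2452, an established human line from a pleural mesothelioma and labelled wild type, was treated with 20 nM deoxypodophyllotoxin (DPT), a lignan that blocks microtubule assembly, or with its solvent DMSO. Both treatments lasted 48 h and each gave 4 libraries, described by the series as biological replicates. The line stands for one tumour. Messages were measured, so neither protein, LC3 lipidation nor autophagic flux was seen. In bulk RNA fewer cells with a message and less message per cell cannot be told apart.

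Library totals ran from 14964432 to 17205391 counts, and levels by library are given as CPM, the count scaled to library size by edgeR's TMM factors. All 10 mesothelial markers averaged above 1 CPM, among them MSLN (mesothelin) with means of 16.3 CPM in DMSO and 12.5 in DPT, CALB2 (calretinin) with 9.49 and 14.3, and WT1 with 8.17 and 9.41. The summed mesothelial markers, mostly keratins, were 3378 to 4862 CPM in DMSO and 2164 to 3548 in DPT. Mesenchymal markers, mostly VIM, summed to 5514 to 7268 and 7314 to 8660 CPM, without overlap. Within that list VIM averaged 5280 CPM in DMSO and 7280 in DPT, COL1A2 324 and 138, and PDGFRB 54.8 and 22.3. Leukocyte markers summed to 90.8 to 130.1 and 94.03 to 145.1 CPM, nearly all from CD68 and CD14. PTPRC, the pan-leukocyte gene for CD45, stayed at or under 0.538 CPM. Endothelial markers summed to 1.46 to 4.81 CPM in DMSO and 3.54 to 9.45 in DPT. The part of these markers in the results was not tested. DMSO replicate 3 and DPT replicate 2 stood apart, with scores of 36.3 and 27.86 on the first principal component against -21.73 to -2.32 for the other 6. Results that rest on this pair are given in all 8 libraries and also with a term for the pair or in the other 6. The pair was picked from the expression values of these same libraries. The p-values with a term for the pair or in the other 6 depend on that choice.

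Levels per length, as the authors' FPKM, differed widely between members. SQSTM1 had the highest of the 36, with 1034 ± 269 FPKM in DMSO and 995.8 ± 233 in DPT (mean ± SD, n = 4 per group). It took 35.1% to 48.9% of the members' summed FPKM in the DMSO libraries and 34.4% to 46.5% in the DPT libraries. GABARAP came next with 200.3 ± 20.2 FPKM in DMSO, then the receptor CALCOCO2 (NDP52) with 131.6 ± 7.97 and MAP1LC3B with 83.59 ± 1.96. In DMSO the libraries of these 4 did not overlap those of the next gene in the order, whereas 26 of the 35 neighbouring pairs overlapped in DMSO and 27 in DPT. At the low end stood MAP1LC3A with 2.81 ± 0.448 FPKM, TFEB with 2.78 ± 0.325 and MITF with 0.832 ± 0.241. MITF, whose DMSO libraries lay under those of TFEB, was last in both groups.

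**Figure D1:**
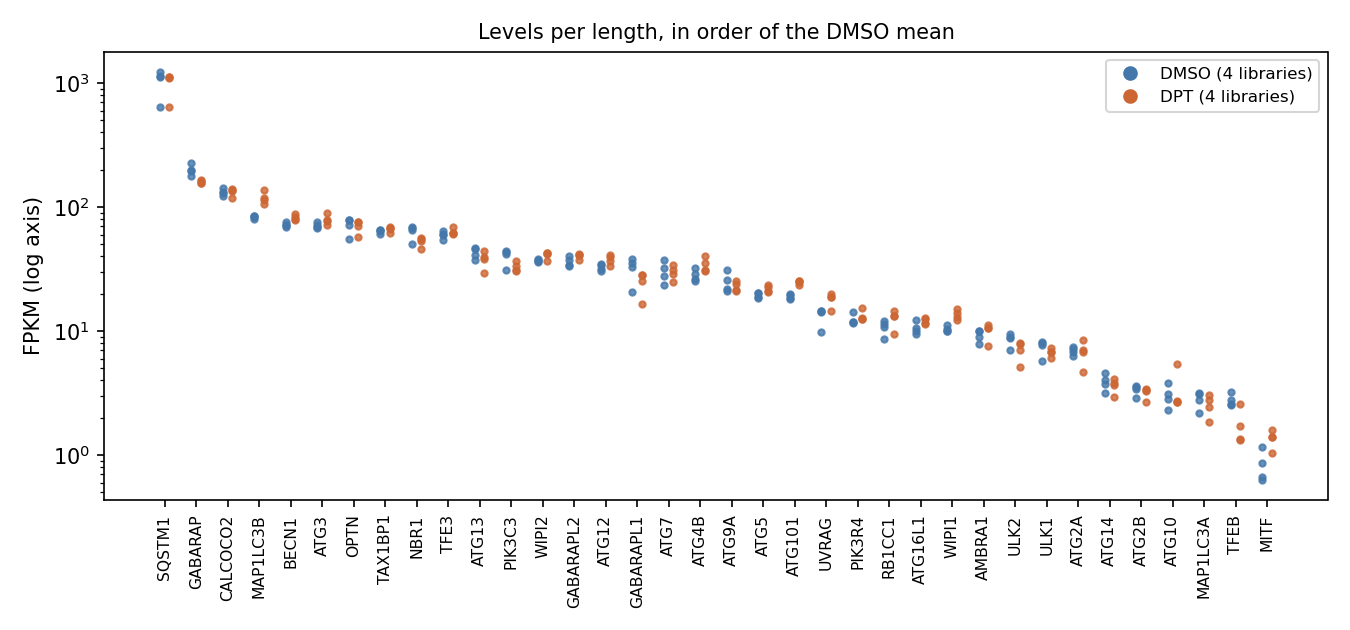
FPKM of the 36 genes on a log axis, one point per library, 4 DMSO libraries in blue and 4 DPT libraries in orange, ordered by the DMSO mean. SQSTM1 lies near 1034 FPKM, well above GABARAP at 200.3, and its single low point in each colour is DMSO replicate 3 or DPT replicate 2.

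With DPT, 2 of the 36 genes rose and 1 fell in edgeR's quasi-likelihood test at an adjusted p under 0.05. MAP1LC3B, the LC3 protein most used to mark autophagosomes, rose 1.38-fold, and ATG101, a scaffold of the ULK complex, rose 1.25-fold. GABARAP, the most abundant member of the LC3 and GABARAP family, fell 1.22-fold. The 3 called genes are 8.33% of the members, and over all 12648 genes tested 11% were called, with 5.68% higher and 5.29% lower. The share of members called was near that of all genes. With limma on log2 FPKM the split was 738 higher and 336 lower of all genes, and 3 and 1 of the members. No member changed by 2-fold. The median log2 fold change was -0.02 for the members and -0.002 for all genes, and the median size without sign was 0.14 against 0.16. The libraries of the groups did not overlap for 6 members (16.7%), and for 18.2% of all genes. At an unadjusted p under 0.05 there were 5 members higher and 5 lower, and 1713 and 1644 of all 12648 genes. DESeq2 called 3 members higher and 3 lower (16.7%, with 15.8% of all genes called).

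**Figure D2:**
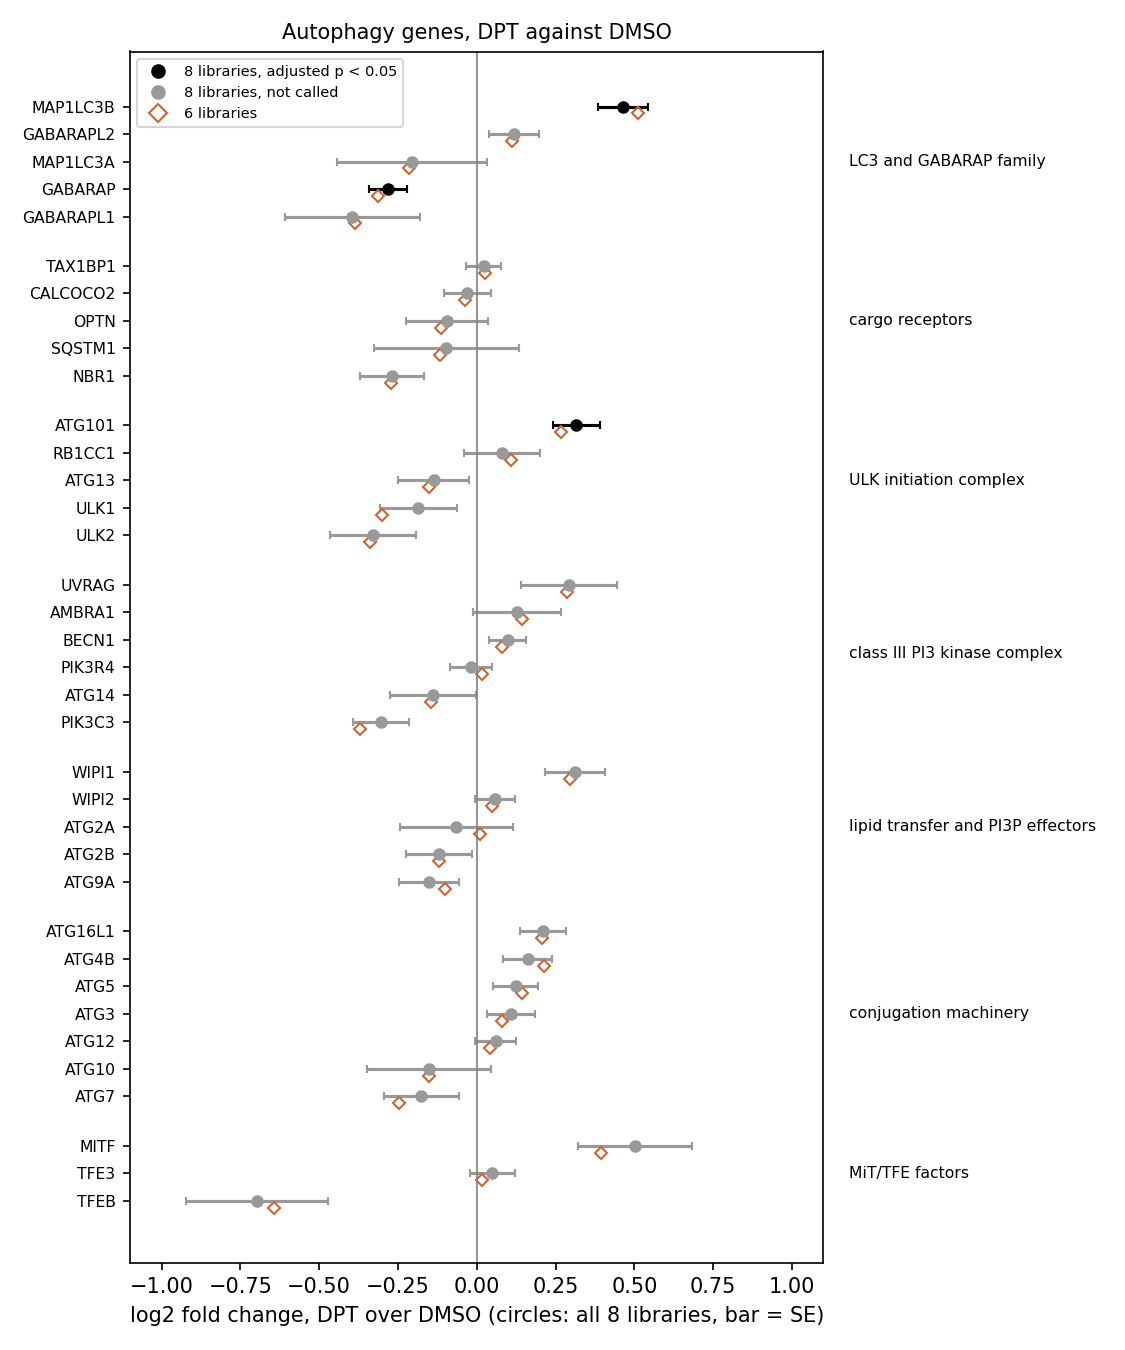
Log2 fold change of DPT over DMSO for the 36 genes, grouped by role. Circles with SE bars are from all 8 libraries, black where the adjusted p was under 0.05, and diamonds are from the 6 libraries without DMSO replicate 3 and DPT replicate 2. The 3 black circles are MAP1LC3B at 0.46, ATG101 at 0.32 and GABARAP at -0.28.

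The pair of libraries mattered for how many members were called. With a term for the pair, 5 members were higher and 7 lower (33.3%, with 34% of all genes called), and in the 6 other libraries 6 were higher and 10 lower (44.4%, with 34.1% of all genes called). Both of these fits called MAP1LC3B, ATG101 and GABARAP in the direction given above. An edgeR fit with a block for replicate number called none of the 3 (adjusted p = 0.0528, 0.109 and 0.0875). That fit called no other member either, and 2.73% of all genes. Of the 16 members called in the 6 libraries, 12 (75%) had the same sign of difference within the pair left out. The same held for 86.2% of all genes called in the 6 libraries. The 4 members that did not were SQSTM1, ULK1, ATG4B and ATG7.

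Proteins of the LC3 and GABARAP family are joined to lipid on the growing membrane, where they hold cargo receptors and help the membrane close. MAP1LC3B (ENSG00000140941, GRCh38 chromosome 16, 87383995 to 87404779, plus strand) measured 186.7, 182.5, 181.1 and 178.5 CPM in DMSO replicates 1 to 4 and 241.9, 224.5, 287.5 and 250.9 CPM in DPT replicates 1 to 4. Every DPT library lay above every DMSO library, and DPT replicate 2 was the lowest of the treated ones. The log2 fold change was 0.46 (SE 0.0785, edgeR adjusted p = 0.00703), it was 0.51 in the 6 libraries, and between DPT replicate 2 and DMSO replicate 3 alone it was 0.31. The call held in all 8 fits that left out a single library (adjusted p 0.00155 to 0.0311). Its counts were not whole in any library, and exons of FBXO31 overlap it on the other strand. MAP1LC3B2, a nearly identical copy with which it may share reads, averaged 0.434 CPM in DMSO and 0.547 in DPT.

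GABARAP (ENSG00000170296, chromosome 17, 7240014 to 7242770, minus strand) stood at 155.7, 160.8, 142.8 and 159.8 CPM in the 4 DMSO libraries and at 126.1, 125.6, 124.2 and 133.6 CPM in the 4 DPT libraries. All DPT libraries lay below all DMSO libraries. Exons of AC120057.2 overlap it on the same strand, and its counts were not whole in 4 libraries, so its reads may be split. The log2 fold change was -0.28 (SE 0.0608, edgeR adjusted p = 0.0186). It missed the threshold in 5 fits, each leaving out 1 library (DMSO 1, 2 or 4, DPT 1 or 3), with adjusted p from 0.0526 to 0.0678.

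GABARAPL1, a close relative of GABARAP, stood at 61.6, 66.6, 38.1 and 62.4 CPM in the 4 DMSO libraries and at 44.97, 28.1, 49.2 and 51.7 CPM in the 4 DPT libraries. The groups overlapped only through DMSO replicate 3, and within each group the library of the pair was the lowest. It was not called in all 8 libraries (log2 fold change -0.39, SE 0.213, adjusted p = 0.276) and fell by 0.39 in the 6 libraries (adjusted p = 0.00021). GABARAPL2 showed a log2 fold change of 0.12 (adjusted p = 0.393), and MAP1LC3A, at 2.54 ± 0.304 CPM in DMSO, one of -0.21 (adjusted p = 0.64).

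The makeup of the family differed between the groups while its sum did not separate them. The 5 genes summed to 324.0 to 392.9 FPKM in DMSO and 332.4 to 365.3 in DPT. MAP1LC3B made up 21.3% to 26.1% of that sum in the DMSO libraries and 32.1% to 37.6% in the DPT libraries. GABARAP made up 55.3% to 57.9% and 42.9% to 49.7%. The ranges did not overlap for either gene, which follows from the 2 calls above and is no further evidence.

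**Figure D3:**
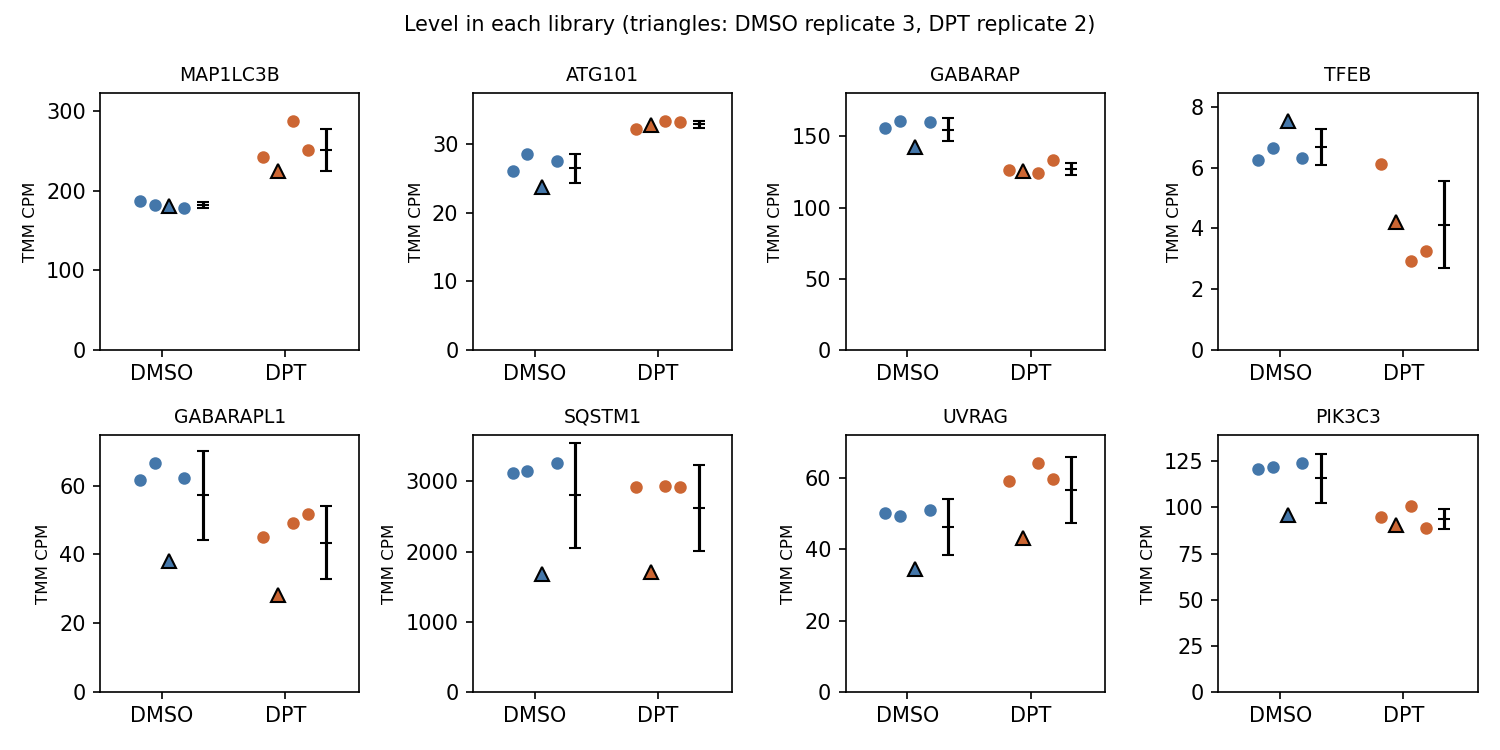
TMM-normalized CPM of 8 members in each library, with the group mean and SD as a black bar. Triangles are DMSO replicate 3 and DPT replicate 2. MAP1LC3B and ATG101 are higher and GABARAP lower in all 4 DPT libraries, and for SQSTM1 the triangles lie near 1684 and 1703 CPM with the circles at 2914 or more.

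None of the 5 cargo receptors was called in all 8 libraries, in edgeR or DESeq2, and 1 had an unadjusted p under 0.05. SQSTM1, the receptor p62 that is itself degraded with its cargo, stood at 3113, 3143, 1684 and 3262 CPM in the 4 DMSO libraries and at 2924, 1703, 2936 and 2914 CPM in the 4 DPT libraries. The 2 libraries of the pair were alike and far below the others whatever the treatment. Between treatments the log2 fold change was -0.10 (SE 0.23, edgeR adjusted p = 0.838) in all 8 libraries, -0.12 (adjusted p = 0.00636) in the 6 and 0.02 within the pair, and a fit with a pair term did not call it (adjusted p = 0.0834). NBR1, another ubiquitin-binding receptor, stood at 272.2, 259.5, 217.3 and 282.6 CPM in the 4 DMSO libraries and at 214.8, 182.6, 226.9 and 232.4 CPM in the 4 DPT libraries. It was not called in all 8 (-0.27, adjusted p = 0.129) and fell by 0.27 in the 6 libraries (adjusted p = 0.000202). OPTN, CALCOCO2 and TAX1BP1, receptors that also act on bacteria and mitochondria, had log2 fold changes of -0.09, -0.03 and 0.02 (adjusted p 0.7, 0.841 and 0.847).

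The ULK complex, which starts autophagosome formation when nutrient signals fall, had 1 call among 5 genes. ATG101 (ENSG00000123395, chromosome 12, 52069246 to 52077494, plus strand) stood at 26.1, 28.5, 23.8 and 27.6 CPM in the 4 DMSO libraries and at 32.2, 32.8, 33.4 and 33.3 CPM in the 4 DPT libraries. The DPT libraries were tightly grouped and all above the DMSO libraries. The log2 fold change was 0.32 (SE 0.0745, edgeR adjusted p = 0.0263), and 5 fits that each left out 1 library (DMSO 1 or 4, DPT 1, 3 or 4) missed the threshold, with adjusted p from 0.0553 to 0.0832. The kinases ULK1 and ULK2 had log2 fold changes of -0.19 and -0.33 (adjusted p = 0.372 and 0.161), and the scaffold ATG13 one of -0.14 (adjusted p = 0.485). These 3 were lower in the 6 libraries, by log2 fold changes of -0.30, -0.34 and -0.15 (adjusted p = 0.00675, 0.00436 and 0.0204). For ULK1 the pair differed the other way, by 0.21. RB1CC1 (FIP200), the complex's large scaffold, showed a log2 fold change of 0.08 (adjusted p = 0.731).

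In the lipid kinase complex none of 6 genes was called by edgeR in all 8 libraries, while PIK3C3 alone had an unadjusted p under 0.05 and was called by DESeq2 (adjusted p = 0.0217). PIK3C3 (VPS34), the catalytic subunit, stood at 121.1, 121.7, 96.1 and 124.1 CPM in the 4 DMSO libraries and at 94.7, 90.7, 100.6 and 88.7 CPM in the 4 DPT libraries. DMSO replicate 3 was the one control library among the treated values. The log2 fold change was -0.30 (SE 0.0894, edgeR adjusted p = 0.058), and without DMSO replicate 3 it was -0.39 (adjusted p = 0.00529). It was -0.30 with a pair term (adjusted p = 0.000666) and -0.37 in the 6 libraries (adjusted p = 3.07e-05). Of the 8 edgeR fits that left out a library, only that without DMSO replicate 3 called PIK3C3. The others missed the threshold, with adjusted p up to 0.159. UVRAG, a partner of BECN1 in the complex that acts late in autophagy and in endosomes, stood at 50.3, 49.3, 34.5 and 51.0 CPM in the 4 DMSO libraries and at 59.4, 43.1, 64.3 and 59.9 CPM in the 4 DPT libraries. Each treatment had its lowest value in the pair, and the remaining DPT libraries lay above all DMSO libraries. Its log2 fold change of 0.29 was not called in all 8 (adjusted p = 0.257) and was called once the pair had a term (0.29, adjusted p = 0.000575). BECN1, the regulatory subunit PIK3R4, the early-acting partner ATG14 and the scaffold AMBRA1 had log2 fold changes of 0.10, -0.02, -0.14 and 0.13 (adjusted p 0.326 to 0.893).

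Among the genes that bring lipid to the membrane or bind PI3P, none of 5 was called by edgeR, while WIPI1 alone had an unadjusted p under 0.05 and was called by DESeq2 (adjusted p = 0.0427). WIPI1, a PI3P-binding protein, stood at 18.6, 20.2, 18.2 and 21.76 CPM in the 4 DMSO libraries and at 26.9, 23.3, 25.7 and 21.81 CPM in the 4 DPT libraries. DMSO replicate 4 and DPT replicate 4 nearly met, and the groups did not overlap. Its log2 fold change of 0.31 missed the threshold (adjusted p = 0.067) and passed once the pair had a term (adjusted p = 0.00984) and in the 6 libraries (adjusted p = 0.0267). WIPI2, the membrane scramblase ATG9A and the lipid transfer proteins ATG2A and ATG2B had log2 fold changes of 0.06, -0.15, -0.06 and -0.12 (adjusted p 0.36 to 0.863).

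The 7 conjugation genes, whose enzymes link ATG12 to ATG5 and LC3 to lipid, had no call in all 8 libraries by edgeR or DESeq2, and 1, ATG16L1, had an unadjusted p under 0.05. ATG16L1, which places the ATG12 and ATG5 conjugate on the membrane, stood at 30.9, 33.4, 33.9 and 31.2 CPM in the 4 DMSO libraries and at 35.5, 39.6, 39.7 and 34.9 CPM in the 4 DPT libraries. The groups did not overlap. The log2 fold change was 0.21 (adjusted p = 0.101), with 0.21 (adjusted p = 0.0214) under the term for the pair. The protease ATG4B and the activating enzyme ATG7 had log2 fold changes of 0.16 and -0.18 (adjusted p = 0.221 and 0.392). In the 6 libraries these were 0.21 and -0.25 (adjusted p = 0.028 and 0.013). ATG3, ATG5, ATG10 and ATG12 ran from -0.15 to 0.12 (adjusted p 0.317 to 0.685).

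TFEB, TFE3 and MITF are related transcription factors that bind the CLEAR element of lysosomal and autophagy genes. TFEB had the lowest log2 fold change of the 36 members and MITF the highest, and both were among the scarcest messages. None of the 3 was called by edgeR, 2 had an unadjusted p under 0.05, and DESeq2 called TFEB (adjusted p = 0.0309). TFEB stood at 6.23, 6.64, 7.53 and 6.33 CPM in the 4 DMSO libraries and at 6.12, 4.195, 2.93 and 3.25 CPM in the 4 DPT libraries. DPT replicate 1 lay just under the controls and the other treated libraries well below. The log2 fold change was -0.70 (SE 0.226, edgeR adjusted p = 0.0806). It was -0.64 in the 6 libraries (adjusted p = 0.0419), -0.77 within the pair, and -0.95 without DPT replicate 1 (adjusted p = 0.0226). Of the 8 edgeR fits that left out a library, only that without DPT replicate 1 called TFEB. The others missed the threshold, with adjusted p up to 0.198. MITF stood at 3.25, 3.73, 3.15 and 2.90 CPM in the 4 DMSO libraries and at 3.67, 5.45, 4.19 and 5.15 CPM in the 4 DPT libraries, where only DPT replicate 1 fell within the control range. Its log2 fold change of 0.50 (SE 0.181) was not called (adjusted p = 0.11), nor in the 6 libraries (0.40, adjusted p = 0.186). TFE3, by far the most abundant of the 3 at 59.5 ± 3.92 FPKM in DMSO, showed a log2 fold change of 0.05 (adjusted p = 0.722).

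The CLEAR element holds the letters CACGTG, so the promoters were read for them and for other short motifs on both strands. RefSeq windows of GRCh38.p14 (250 bases before to 50 after a start site) were matched for 33 of the 36 members, with 45 windows in all. CACGTG stood in 2 of these windows (4.44%) and in 7.26% of all 35116 windows. The AP-1 motif TGANTCA stood in 1 (2.22%, against 7.71%) and the CRE TGACGTCA in 2 (4.44%, against 1.85%). No window held the amino acid response letters TGATGCAA, which 0.866% of all windows did. CCAAT stood in 26.7% against 34.6%, and the GC box GGGCGG in 71.1% against 45%, with a median GC content of 64.7% in the members' windows and 58.7% in all. The E-box stretches below are the only 2 of the members, the CRE is from GABARAPL1, and the GC boxes are from the 3 called genes; capitals mark the motif or its reverse complement. No motif searched contains the letters of another, and a match is a description of letters only.
ATG3, CACGTG, chr3:112561951-112561980, minus strand: CACGTGccgggagagtctagtgtCACGTGa
ATG14, CACGTG, chr14:55411834-55411863, minus strand: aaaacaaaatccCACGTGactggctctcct
GABARAPL1, TGACGTCA, chr12:10212836-10212865, plus strand: ggctcgcggggTGACGTCAcagcccgacgc
MAP1LC3B, GC box, chr16:87392248-87392277, plus strand: ccggctctggccCCGCCCctcggtgacgcg
ATG101, GC box, chr12:52069952-52069981, plus strand: ccggcgcgcgggGGGCGGtgcggcttccgg
GABARAP, GC box, chr17:7242460-7242489, minus strand: cccgatagtcggGGGCGGggttggtgaata

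The first base of the motif lay 18 bases before the RefSeq start in ATG3, 21 in ATG14, 30 in GABARAPL1, 76 in MAP1LC3B, 14 in ATG101 and 28 in GABARAP, and the other CACGTG of ATG3 lay just past its start. Neither ATG3 nor ATG14 was called, with log2 fold changes of 0.11 and -0.14 (adjusted p = 0.412 and 0.574). The GC box stood in 26 of the 33 matched member genes, the 3 called ones among them.

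Apart from treatment, many members were low in the pair of libraries. In 15 of 36 members (41.7%) DMSO replicate 3 was the lowest DMSO library and DPT replicate 2 the lowest DPT library, and 26.3% of all genes showed this. In 4 members (11.1%) both were the highest, and in 25.6% of all genes. The median difference of the pair from the other 6 was -0.12 log2 for the members and -0.003 for all genes. It was -0.85 for SQSTM1, -0.75 for GABARAPL1, -0.56 for ATG2A and -0.52 for UVRAG, and at the other end 0.37 for ATG10 and 0.24 for ATG9A. By role, the median was -0.35 for the ULK complex, -0.31 for the cargo receptors, -0.29 for the lipid kinase complex and 0.10 for the conjugation genes. These are descriptions of 2 libraries chosen for standing apart, and the labels do not say how they differ.

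**Figure D4:**
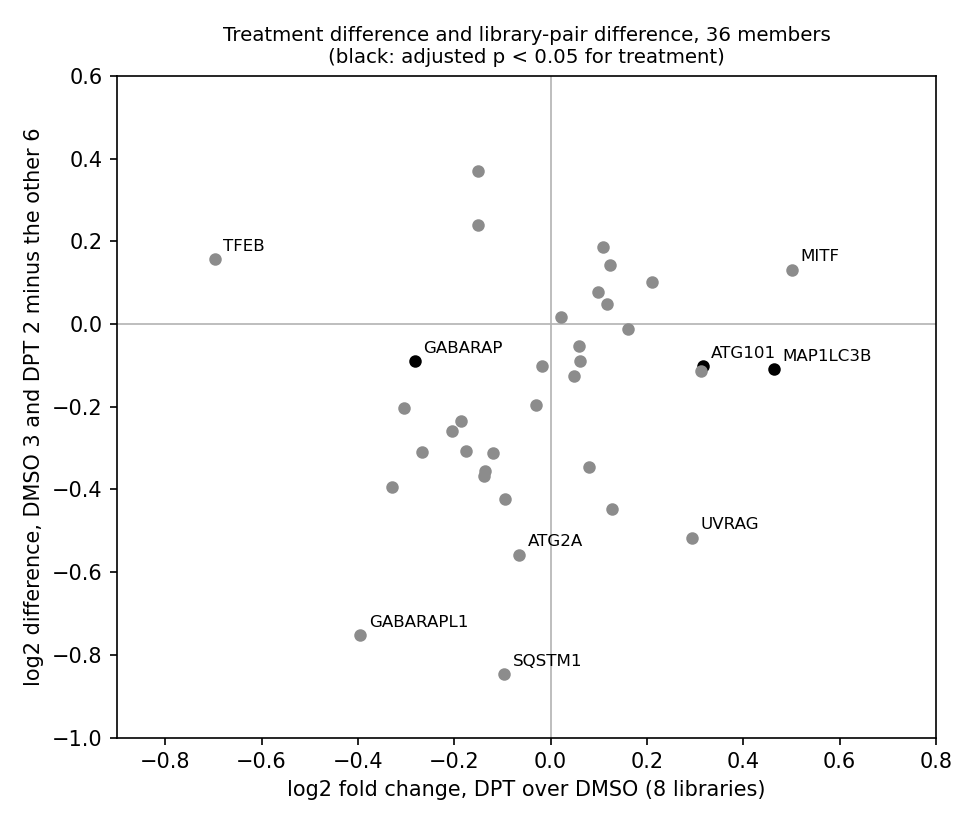
Each point is one of the 36 genes, with the log2 fold change of DPT over DMSO in 8 libraries on the x axis and the log2 difference of DMSO replicate 3 and DPT replicate 2 from the other 6 on the y axis. SQSTM1 and GABARAPL1 lie lowest, at -0.85 and -0.75, while the 3 genes called for treatment, in black, lie near -0.10.

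Genes around the pathway were read in 4 lists, each to be set against the 11% of all genes called (5.68% higher, 5.29% lower). At an unadjusted p under 0.05, 1713 of all 12648 genes were higher and 1644 lower, and DESeq2 called 15.8% of all genes. Upstream, the mTORC1, AMPK and nutrient-sensing list had 1 of 35 tested genes higher and 0 lower (2.86%, median log2 fold change 0.02). That gene was SESN2, a stress-induced inhibitor of mTORC1 signalling. It stood at 20.3, 20.8, 14.2 and 19.8 CPM in the 4 DMSO libraries and at 38.9, 31.0, 39.7 and 39.7 CPM in the 4 DPT libraries, and rose 1.99-fold (SE 0.134 log2, edgeR adjusted p = 0.00281). Every treated library lay above every control, and the call held in all 8 fits that left out a library. At an unadjusted p under 0.05 this list had 3 genes higher and 1 lower, and DESeq2 called 1 and 0. MTOR itself showed a log2 fold change of 0.04 (adjusted p = 0.784).

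Of 20 tested selective receptors and regulators outside the members, 2 rose and 2 fell (20%, where 11% of all genes were called, median -0.01). RTN3, a receptor for the endoplasmic reticulum, fell from 303.3 ± 10.4 to 240.8 ± 12.4 CPM (n = 4 per group, edgeR adjusted p = 0.0101), a call that held in all 8 fits without a library. The mitophagy receptor BNIP3L fell from 64.6 ± 6.7 to 49.7 ± 1.09 CPM (adjusted p = 0.0177), whereas its relative BNIP3 rose from 45.55 ± 0.922 to 53.58 ± 2.91 CPM (adjusted p = 0.041). FUNDC1, a receptor in the outer mitochondrial membrane, rose from 8.67 ± 0.353 to 11.1 ± 0.554 CPM (adjusted p = 0.0422), and none of the 8 fits that left out a library kept this call. BNIP3L was called in 2 and BNIP3 in 1 of those 8 fits. KEAP1, which SQSTM1 can bind, showed a log2 fold change of -0.08 (adjusted p = 0.425).

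Other genes of autophagosome formation and fusion had 1 of 27 higher and 0 lower (3.7%, median -0.05), with 3 higher and 4 lower at an unadjusted p under 0.05 and 1 and 0 by DESeq2. The call was NRBF2, a partner of the lipid kinase complex, which rose from 25.64 ± 3.16 to 35.55 ± 4.19 CPM (n = 4 per group, edgeR adjusted p = 0.0307) and was called in 2 of the 8 fits without a library. Downstream, lysosomal genes known as targets of TFEB and TFE3 had 0 of 22 higher and 1 lower (4.55%, median -0.08). The log2 fold change was positive in 6 of these 22, and in 6294 of all 12648 genes. At an unadjusted p under 0.05 this list had 2 higher and 6 lower, beside 1713 and 1644 of all genes. DESeq2 called 1 and 2 of the list (13.6%, with 15.8% of all genes called). LAMP2, a membrane protein of the lysosome, fell from 291.3 ± 14 to 248.4 ± 5.8 CPM (adjusted p = 0.0355) and was called in 2 of the 8 fits, while LAMP1 showed a log2 fold change of -0.04 (adjusted p = 0.767). Once the pair had its own term, the counts higher and lower were 7 and 2 for the mTORC1 and AMPK list, 3 and 6 for the receptors, 6 and 5 for formation and fusion, and 3 and 6 for the lysosomal genes. These are 25.7%, 45%, 40.7% and 40.9% of the lists, where 34% of all genes were called (2140 higher and 2156 lower).

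**Figure D5:**
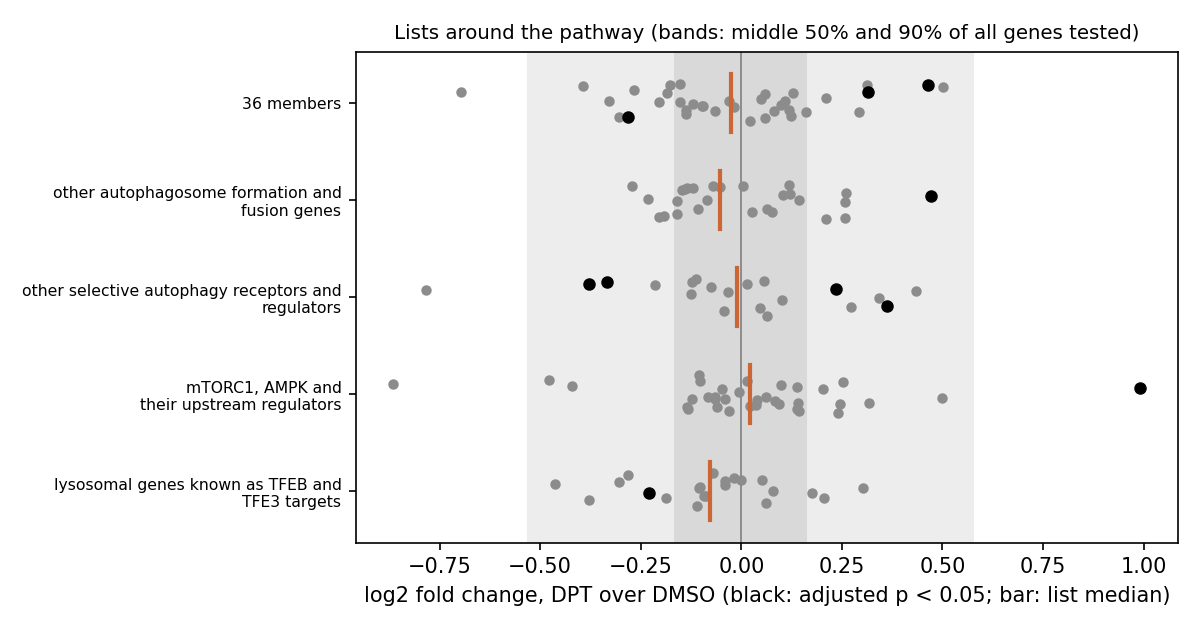
Log2 fold change of DPT over DMSO for the 36 members and the 4 lists around them, one point per tested gene, black where the edgeR adjusted p was under 0.05, with the list median as an orange bar. Grey bands hold the middle 50% and 90% of all genes tested, and the list medians lie between -0.08 and 0.02.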

How the data were processed

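RNA of 4 DMSO and 4 DPT libraries of H2452 cells was measured after 48 h. The authors deposited expected counts and FPKM per gene, per the file headers. Of the expected counts 10.8% were not whole. The submitters' processing notes name hg38 as the build and list fastp (0.18.0), RSEM, HISAT2, DESeq2 and StringTie (1.3.1) as tools. Not given in the sources used here are what each did, whether strand was used and which annotation release applied. Exons of 19 of the 36 members overlap another gene in GENCODE release 29, 18 of them on the other strand, so their reads may not be separated.

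Expected counts were rounded and fitted in edgeR 4.0.16 (R 4.3.3) with filterByExpr defaults (minimum count 10, minimum total 15), TMM and the quasi-likelihood test on 12648 genes, with treatment as the only term. P-values were adjusted by Benjamini-Hochberg across all genes tested, and a gene was called under 0.05. The SE is the log2 fold change over the root of the F statistic. Alternatives were DESeq2 1.42.0, its size factors, no filter, limma 3.58.1 on log2 FPKM with pseudocounts of 0.1 and 1, a replicate block, a term for the pair of libraries, the other 6 libraries, and each library left out. Pair differences used log2(CPM + 0.5). Replicates of a group differed beyond counting noise (chi-square per degree of freedom 2.65 to 55). The labels do not say whether replicates came from separate cultures, beyond the series' word biological. The p-values set the treatment difference against the spread between these samples.

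The members and lists were chosen with earlier results of these data known. All members are named; of each list, up to 3 called genes per direction with the smallest adjusted p, and MTOR, ULK1, LAMP1 and KEAP1, are named. Coordinates are those of GENCODE release 29 (GRCh38), and promoter sequences are from RefSeq.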

Additional observations from a re-analysis of the deposited data

Results flagged for a closer look

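Within a group of 4, a library was marked where its gap to the nearest other library exceeded Dixon's critical share of the group's range. This was applied to 36 genes in 2 groups, and 7 of the 72 were marked, where the nominal rate is about 1 in 20. The 72 share the same 8 libraries, and the share marked over all genes was not counted. No excess in the members can therefore be read from this count. Of the 7 marks, DMSO replicate 3 accounted for 3 and DPT replicate 2 for 3.

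SQSTM1 was marked in both groups, at 1680 CPM in DMSO replicate 3 against 3110 to 3260 in the other DMSO libraries, and at 1700 CPM in DPT replicate 2 against 2910 to 2940. In DMSO replicate 3, PIK3C3 measured 96.1 CPM against 121 to 124, and UVRAG 34.5 CPM against 49.3 to 51. In DPT replicate 2, CALCOCO2 measured 216 CPM against 243 to 247, and ATG2B 34.8 CPM against 42.8 to 44. TFE3 was the exception outside the pair, with 222 CPM in DPT replicate 1 against 199 to 200 in the other treated libraries.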

How the results depend on the processing

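Over 576 fits of a member under an alternative, 531 stayed on their side of the threshold, 13 lost a call, 32 gained one and none reversed a call. The sign changed in 13, all of uncalled members. The numbers of members higher and lower were 2 and 1 in the planned fit. They were 5 and 7 with the term for the pair, 6 and 10 in the 6 libraries, and 0 and 0 with the replicate block. With DESeq2 they were 3 and 3, and with limma at either pseudocount 3 and 1. For all genes they were 718 and 669, then 2140 and 2156 with the term, 2158 and 2169 in the 6 libraries and 171 and 174 with the block; limma on log2 FPKM gave 738 and 336 at a pseudocount of 0.1 and 737 and 342 at 1, so the share of higher calls moved from 51.8% to 68.7%. For formation and fusion genes (1 and 0) they were 6 and 5, 5 and 4, and 0 higher with the block. For selective receptors (2 and 2) they were 3 and 6 with the term, 2 and 5 in the 6 libraries, and 0 and 0 with the block. With no filter they were 0 and 3, with DESeq2 2 and 4, and with limma at either pseudocount 2 and 1. For the mTORC1 and AMPK list (1 and 0) they were 7 and 2 with the term and in the 6 libraries. For lysosomal genes (0 and 1) they were 3 and 6 with the term, 2 and 8 in the 6 libraries, 0 lower with the block or with limma at either pseudocount, and 1 and 2 with DESeq2. The biological coefficient of variation was 14.9% in the planned fit and 6.3% with the term for the pair; the cause of these differences was not tested.

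Leaving out each library in turn gave 1 to 2 members higher and 0 to 5 lower, 332 to 1183 and 311 to 1108 of all genes, 0 to 2 and 0 to 2 formation and fusion genes, 0 to 1 and 1 to 4 receptors, 1 to 4 and 0 to 1 of the mTORC1 and AMPK list, and 0 to 1 and 0 to 6 lysosomal genes. The 5 lower members were found without DMSO replicate 3.

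With the replicate block MAP1LC3B, GABARAP and ATG101 had adjusted p of 0.0528, 0.0875 and 0.109 in edgeR. Deviations from the group mean correlated 0.259, -0.38, -0.44 and 0.249 between libraries of the same number, for numbers 1 to 4. DMSO replicate 3 correlated best with DPT replicate 2 (0.718), and numbers 2 and 3 each include a library of that pair. Unmatched numbers outside the pair gave like values, such as 0.27 for DMSO replicate 1 with DPT replicate 3. These values therefore cannot show whether the shared numbers pair the libraries. TFEB, MITF, ATG10 and MAP1LC3A were scarce, under 8 CPM in every library, and the part of depth in their results was not tested.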

Other observations

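The deposited table places 154 genes in the KEGG pathway for autophagy in animals, of which 29 are members; the named genes of this paragraph were chosen after their values were seen. Of 131 tested, 7 were higher and 7 lower (10.7%, beside 11% of all genes). DAPK3, a death-associated kinase, rose from 43.8 ± 2.48 to 64.8 ± 2.7 CPM (n = 4 per group, edgeR adjusted p = 0.0014), and its relative DAPK1 fell from 61.5 ± 4.66 to 39.8 ± 1.74 CPM (adjusted p = 0.00136). TP53INP2 (DOR), which binds LC3 and GABARAP proteins, fell from 44.6 ± 5.46 to 31.4 ± 1.61 CPM (adjusted p = 0.0113). PIK3CD rose from 6.43 ± 0.515 to 13.0 ± 3.48 CPM (adjusted p = 0.0139), and PIK3R3 fell from 34.0 ± 3.93 to 23.9 ± 1.55 CPM (adjusted p = 0.0103). Both encode lipid kinase subunits, but neither belongs to the lipid kinase complex around BECN1 described above. PRKACB, a catalytic subunit of protein kinase A, fell from 39.0 ± 3.18 to 26.6 ± 3.88 CPM (adjusted p = 0.0133). The calls of DAPK3, DAPK1, TP53INP2, PIK3R3 and PRKACB held in all 8 fits that left out a library, and that of PIK3CD in 7.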
